A study of Homo sapiens with 3 samples.

Results

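The transcripts of the PI3K, AKT, mTOR and FOXO signaling core were followed in A375 melanoma cells exposed to adipocyte secretomes. The set holds 40 genes, taken by name from the symbol column of a count table of 58037 genes and sorted by role into kinases, adaptors, phosphatases, mTOR complexes, translation factors and FOXO factors. No cutoff on values set the membership or the roles, but both were fixed with earlier results of these data known. All 40 genes are listed in the table, and 37 had a mean normalized count of at least 20 across the libraries and entered the comparisons. The other 3, PIK3CG, PIK3R2 and PIK3IP1, are given by their counts.

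A375 is an established human melanoma cell line. The control cells were kept in serum free DMEM, and the others in secretome of young adipocytes (YA-A375) or of old adipocytes (OA-A375). Exposure lasted 24 h, although the labels give a range that begins there and runs longer. The secretomes were serum-free DMEM conditioned by adipocytes differentiated in culture from human subcutaneous preadipocytes, and the sources used here do not say how many donors stood behind each. The comparisons ask whether either secretome was accompanied by other transcript levels of the pathway. Each group had 1 poly(A) RNA library, so no difference below has a replicate check, no test across genes was possible and every error given is counting error alone. A higher count in bulk RNA can come from more RNA per cell or from more cells carrying it, and these cannot be told apart.

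The pathway works as a relay. Activated receptors recruit adaptors such as IRS and GAB proteins, which dock class I PI3K, a catalytic subunit bound to a regulatory subunit. PI3K phosphorylates the membrane lipid PIP2 to PIP3, which brings PDPK1 and AKT to the membrane, where PDPK1 and mTOR complex 2 activate AKT. AKT then restrains the TSC1-TSC2 complex, GSK3 and the FOXO transcription factors. Relief from TSC lets RHEB switch on mTOR complex 1, which drives protein synthesis through S6 kinases and the cap-binding factor EIF4E. Lipid phosphatases and the AKT phosphatases PHLPP1 and PHLPP2 oppose the relay. In melanoma the pathway is best known as a partner of MAPK signaling in growth, survival and drug tolerance. Most of these steps are regulated by phosphorylation and by lipid levels, which RNA counts do not measure.

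Totals ran from 18089008 to 21448195 counts per library, and the 40 genes held 0.395% of them in control, 0.372% in YA-A375 and 0.329% in OA-A375. EIF4B alone made up 26789, 22072 and 16163 of the members' 84627, 79235 and 59459 counts. Of 10 melanoma and melanocyte markers, PRAME, MITF and S100B were well counted in all libraries, while SOX10 had no count and TYR, DCT and PMEL had at most 10. Whether the 0 of SOX10 reflects absence of its transcript was not tested. Of 12 adipocyte markers, LEP and CIDEA were at 0 throughout and ADIPOQ had at most 1 count, and 4, 3 and 6 of the list were at or under 3 counts in control, YA-A375 and OA-A375. The summed normalized level of the adipocyte list was 2247 in control, 3185 in YA-A375 and 2278 in OA-A375, and that of 13 fibroblast markers was 842, 1053 and 716. All 6 adipocyte markers tested were at least 1.2-fold higher in YA-A375 than in control, beside 17.4% of all genes. In OA-A375, 3 were higher and 1 lower, beside 21.1% and 21.5%. Of 6 fibroblast markers tested, 3 were higher and 1 lower in YA-A375, and 2 higher and 3 lower in OA-A375. LPL had 333, 551 and 33.7 normalized counts in control, YA-A375 and OA-A375, and CIDEC 5.65, 29.3 and 40.4. The fibroblast gene DCN had 12.3, 130.4 and 26.9, and PDGFRA 71.6, 18.9 and 57.25. PPARG (1515, 1856 and 1717) made up most of the adipocyte sum. Mitochondrial genes took 1.51%, 2.47% and 1.59% of the counts. The part of such RNA or of RNA quality in the results below was not tested.

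The sequences upstream of the members that differed most are shown first. The windows are the 250 bases before each RefSeq start site on GRCh38.p14. A window was found for 36 of the 40 genes, in 60 windows because some genes have several starts, and MLST8, AKT1S1, SGK3 and GAB1 had none. IRS2 and FOXO1, both on chromosome 13 and both on the minus strand, were the members with the lowest folds in OA-A375. Neither window holds the forkhead core GTAAACA, the E-box CACGTG or the cyclic AMP response element TGACGTCA on either strand, so no letters are in capitals.
IRS2 at chr13:109786584-109786833: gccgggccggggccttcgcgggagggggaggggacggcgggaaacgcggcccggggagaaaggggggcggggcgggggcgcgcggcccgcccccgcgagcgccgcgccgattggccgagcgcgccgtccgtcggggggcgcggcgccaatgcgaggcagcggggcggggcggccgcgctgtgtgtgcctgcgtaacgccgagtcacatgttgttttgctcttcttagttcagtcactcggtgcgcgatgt
FOXO1 at chr13:40666642-40666891: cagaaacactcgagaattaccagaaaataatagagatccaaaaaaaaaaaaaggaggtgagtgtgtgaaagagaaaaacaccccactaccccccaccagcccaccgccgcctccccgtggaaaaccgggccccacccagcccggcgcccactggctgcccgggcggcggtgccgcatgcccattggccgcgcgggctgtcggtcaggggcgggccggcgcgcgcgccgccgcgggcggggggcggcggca
The IRS2 window is 76.4% G or C and the FOXO1 window 67.2%, where the median over 35116 windows of all genes was 58.0% and that over the 36 members 64.4%.

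The E-box, the letters read by MYC and by TFEB-type factors, was present in 4 of the 60 windows and in 6.34% of all 35116 windows. It is shown because the genes that carry it went in opposite directions in OA-A375. EIF4E, which was higher there, holds the E-box at 2 positions, whereas EIF4B, TSC2 and INPP4B, which were lower, hold it at 1 position each. The INPP4B match lies before a start far inside the gene, whose annotated 5' end is at chr4:142847432. Use of that inner start in A375 was not tested. Each line gives 30 bases with the E-box in capitals.
EIF4E at chr4:98929341-98929370, minus strand: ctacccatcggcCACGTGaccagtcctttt
EIF4E at chr4:98929188-98929217, minus strand: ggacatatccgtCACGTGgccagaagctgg
EIF4B at chr12:53006422-53006451, plus strand: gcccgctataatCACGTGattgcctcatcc
TSC2 at chr16:2047859-2047888, plus strand: atgcggccccgtCACGTGatgcaaggatcg
INPP4B at chr4:142405483-142405512, minus strand: tcagctccacagCACGTGacttcctatttc
The forkhead core was found in 1 of the 60 windows, that of PIK3CA, and in 2.98% of all windows. The cyclic AMP response element was found in none of the 60 and in 1.65% of all. The motifs were chosen after the values had been seen, and a match of letters is not evidence of binding.

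Across the set, fewer members differed from control in YA-A375 than in OA-A375, where most that differed were lower. A member was counted when the libraries differed by at least 1.2-fold. The study's methods name a change of 1.2 without saying whether it is a fold or a log2 value, and at a log2 difference of 1.2 no member would be counted in any comparison. In YA-A375 against control 3 members were higher and 6 lower. Among all 14413 genes tested, 17.4% were that much higher and 16.4% that much lower, so the share of members that were lower (16.2%) was near the background and the share that were higher (8.1%) was below it. The median log2 fold change of the members was -0.02, and that of all genes was -0.02. In OA-A375 against control 4 members were higher and 14 lower, or 10.8% and 37.8%, beside 21.1% and 21.5% of all genes. The members' median log2 fold change was -0.16 and that of all genes was 0.01. Between YA-A375 and OA-A375, 10 members were higher in YA-A375 and 3 lower, or 27.0% and 8.1%, beside 23.0% and 21.5% of all genes, with medians of 0.11 for members and -0.01 for all genes. These 3 comparisons use each library in 2 of them and are not independent.

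A stricter count took only members whose 95% Clopper-Pearson interval for the fold lay wholly beyond 1.2-fold. In YA-A375 against control no member was higher by this rule and 1, GAB2, was lower, beside 6.03% and 4.44% of all genes. In OA-A375 against control 1 member, EIF4E, was higher and 8 were lower, beside 9.04% and 9.08%. These 8 were IRS2, FOXO1, PIK3R3, GAB2, GSK3B, EIF4B, INPP4B and TSC2. In YA-A375 against OA-A375, 8 members were higher and 2 lower, beside 10.0% and 9.03%. The 8 were IRS2, FOXO1, PIK3R3, TSC1, TSC2, INPP4B, INPP5D and PHLPP1, and the 2 were PIK3CD and EIF4E. In all, 13 members passed the stricter rule in at least 1 comparison, and 15 stayed within 1.2-fold in all of them. The shares of all genes that did so were not computed, so neither number can be called high or low.

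**Figure D1:**
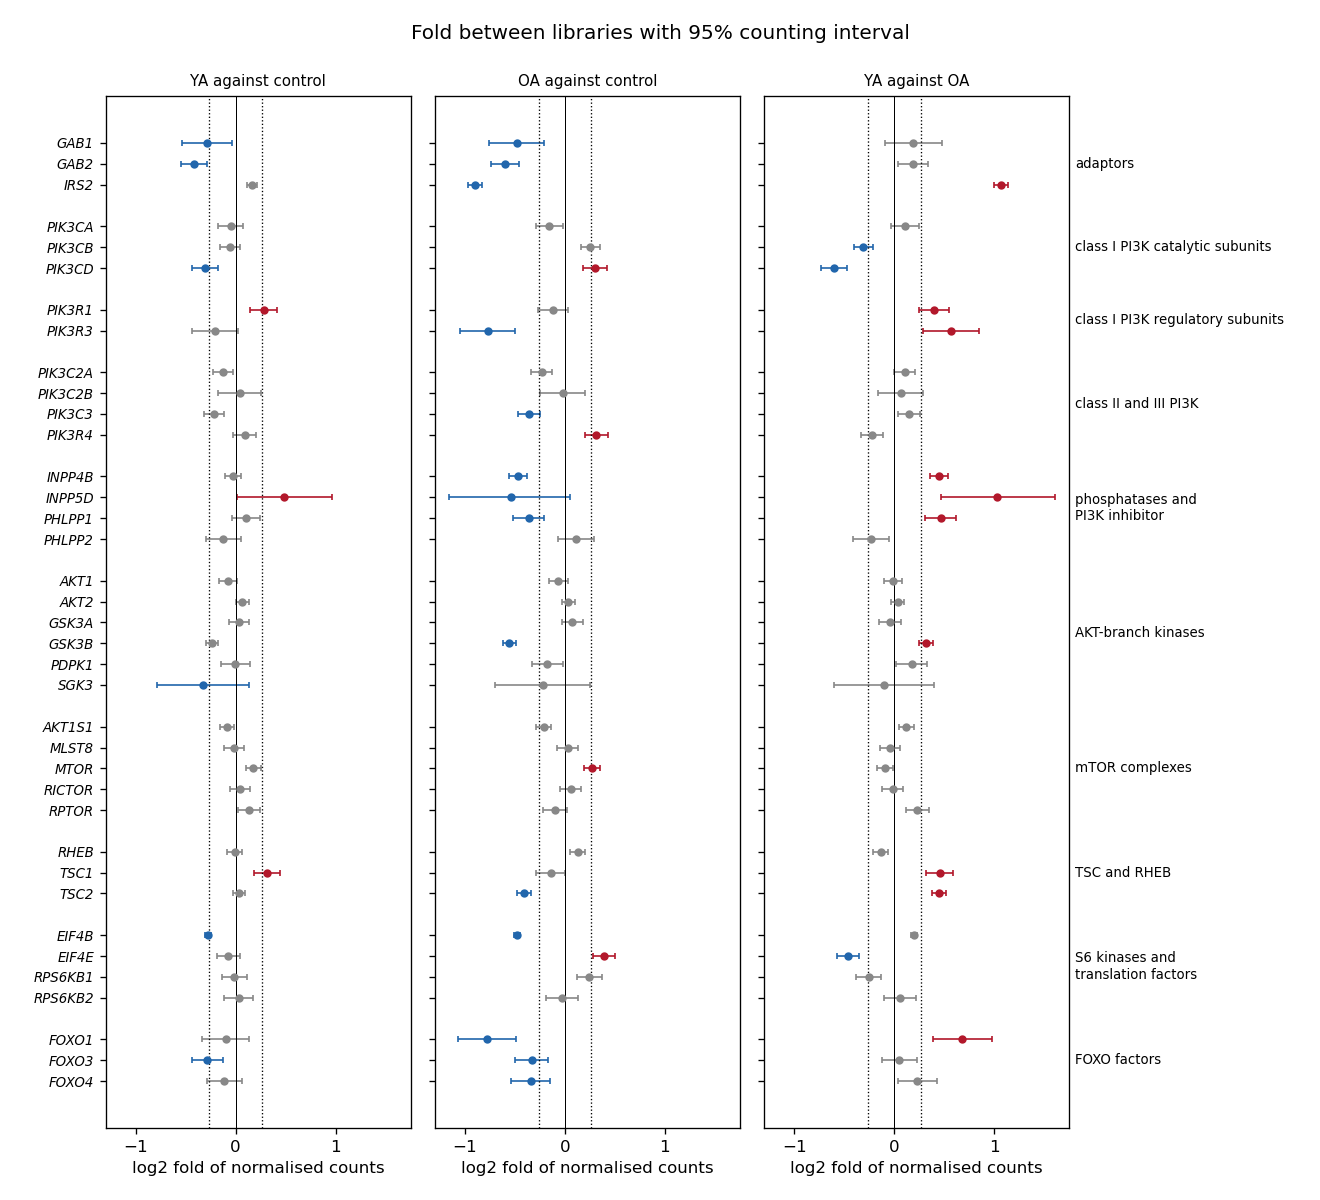
Log2 fold of normalized counts for the 37 members tested, in rows grouped by role, in 3 panels for YA against control, OA against control and YA against OA. Points are folds, bars are 95% counting intervals, dotted lines mark 1.2-fold, and red and blue mark members at least 1.2-fold higher or lower. Most points of the first panel lie between the dotted lines, while 14 members in the second lie at or left of the lower line, with IRS2, FOXO1 and PIK3R3 furthest.

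OA-A375 was the lowest of the 3 libraries for 23 of the 37 members, beside 36.1% of all genes tested, and the highest for 11, beside 38.5% of all genes. Members were longer than other genes, with a median merged exon length of 8681 bases beside 4836, and better counted, with a median normalized count of 1223 beside 486. Across the 14380 tested genes with an annotated length, the log2 fold change in OA-A375 against control had a Spearman correlation of -0.08 with exon length and 0.04 with the mean count. For YA-A375 against OA-A375 these correlations were 0.13 and -0.10, and for YA-A375 against control 0.06 and -0.06. The part of length in the members' values was not tested, including those of the long genes TSC1, TSC2 and INPP4B.

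**Figure D2:**
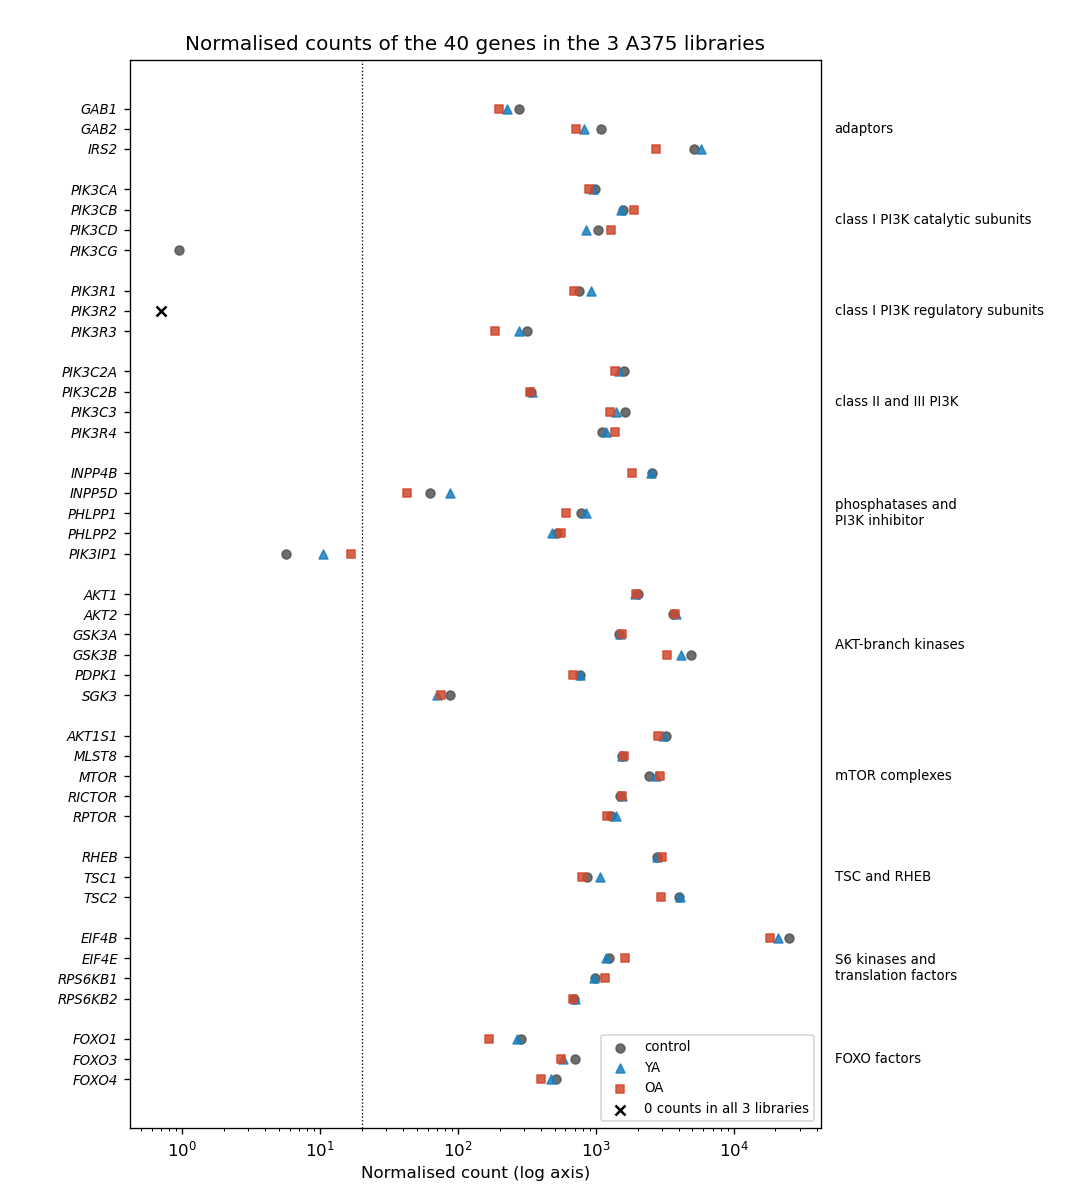
Normalized count, on a log axis, of each of the 40 genes in control (grey circles), YA (blue triangles) and OA (red squares), in rows grouped by role, with a dotted line at the minimum mean of 20. EIF4B is the most counted member at 18143 to 25243, the other tested members lie at 5724 or below in every library, and PIK3R2 is marked by a cross because it had 0 counts in all 3 libraries.

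The 3 adaptors in the set, which link receptors to PI3K, were all at least 1.2-fold lower in OA-A375 than in control, beside 21.5% of all genes. IRS2 was the member with the lowest fold there. IRS2 (ENSG00000185950.8; GRCh38, chr13:109752698-109786568), the docking protein of insulin and IGF1 receptors, had normalized counts of 5115 in control, 5724 in YA-A375 and 2734 in OA-A375. YA-A375 was the highest and OA-A375 stood far below both. Its fold was 1.12 in YA-A375 (interval 1.08 to 1.16) and 0.535 in OA-A375 (0.509 to 0.561), and YA-A375 was 2.09-fold of OA-A375 (2.00 to 2.20). GAB2, a docking protein that binds the PI3K regulatory subunit and the phosphatase SHP2, had 1088, 818 and 718 normalized counts in control, YA-A375 and OA-A375. Both secretome libraries were lower than control, at 0.751-fold in YA-A375 (0.687 to 0.821) and 0.660-fold in OA-A375 (0.598 to 0.728). The related GAB1 was less counted, with 277, 227 and 199, and its folds of 0.819 (0.688 to 0.974) and 0.717 (0.592 to 0.867) lay in the same direction.

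IRS1, the other main insulin receptor substrate, is no member of the set but had the opposite order. Its normalized counts were 1240 in control, 709 in YA-A375 and 2362 in OA-A375, so the library highest for IRS2 was lowest for IRS1. Within a library the ratio of these genes needs no scaling between libraries. Per kilobase of merged exons, IRS2 exceeded IRS1 5.05-fold in control (counting interval 4.75 to 5.36), 9.88-fold in YA-A375 (9.15 to 10.7) and 1.42-fold in OA-A375 (1.34 to 1.50). The intervals of the 3 libraries do not overlap.

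The catalytic subunits of class I PI3K did not differ in the same way. PIK3CA encodes the alpha subunit, most often mutated in carcinomas, PIK3CB the beta subunit, and PIK3CD the delta subunit, known mainly from leukocytes. PIK3CD (chr1:9651732-9729114) had 1036 normalized counts in control, 839 in YA-A375 and 1275 in OA-A375, with control between the secretome libraries. It was 0.810-fold of control in YA-A375 (0.741 to 0.886), 1.23-fold in OA-A375 (1.13 to 1.34), and 0.658-fold in YA-A375 of its level in OA-A375 (0.602 to 0.719). PIK3CB had 1580, 1525 and 1887, and was just short of 1.2-fold in OA-A375 at 1.19-fold (1.12 to 1.28). In YA-A375 it was past 1.2-fold lower than in OA-A375, at 0.808-fold (0.754 to 0.866). PIK3CA had 985, 952 and 883, with folds of 0.967 (0.886 to 1.06) in YA-A375 and 0.897 (0.817 to 0.985) in OA-A375. Exons of KCNMB3 on the opposite strand cover 35.8% of the merged PIK3CA exons, and without a stated strand setting its reads may include theirs.

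Per kilobase, the beta subunit was the highest of the 3 in each library, followed by delta and then alpha, all on the scale of normalized counts per kilobase. PIK3CB stood at 201 in control, 194 in YA-A375 and 240.4 in OA-A375, PIK3CD at 164, 133 and 201, and PIK3CA at 104, 100.2 and 93.1. The ratio of PIK3CD to PIK3CA was 1.58 in control (1.45 to 1.72), 1.32 in YA-A375 (1.21 to 1.45) and 2.16 in OA-A375 (1.97 to 2.37), and the OA-A375 interval lies above the others. The ratio of PIK3CA to PIK3CB was 0.515 in control and 0.516 in YA-A375, but 0.387 in OA-A375 (0.355 to 0.422). PIK3CG, the gamma subunit of leukocytes, had 1 count in control and 0 in both secretome libraries, which at a floor of 3 counts allows no fold. Merged exons join all annotated isoforms and overstate the length of genes with long rare exons, so orders between genes depend on the annotation, while changes of a ratio between libraries do not.

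The regulatory subunits hold the catalytic subunits stable and bring them to phosphorylated adaptors. PIK3R1 (chr5:68215720-68301821) had 754 normalized counts in control, 916 in YA-A375 and 695 in OA-A375, and was 1.22-fold of control in YA-A375 (1.11 to 1.34) and 0.922-fold in OA-A375 (0.829 to 1.03). PIK3R3 (chr1:46040140-46133036) had 318, 276 and 186, and OA-A375 was the lowest. Its fold was 0.869 in YA-A375 (0.741 to 1.02), with an interval that holds 1, and 0.587 in OA-A375 (0.484 to 0.709). Another gene covers 17.4% of its merged exons on the same strand. The ratio of PIK3R1 to PIK3R3 per kilobase was 1.63 in control (1.44 to 1.86), 2.28 in YA-A375 (2.00 to 2.61) and 2.57 in OA-A375 (2.16 to 3.07), so both secretome libraries stood above control. PIK3R2 was listed at 0 in all libraries, and so was the readthrough gene with the identifier ENSG00000268173.2, whose exons cover 87.2% of those of PIK3R2 on the same strand in GENCODE release 29. Its 0 therefore cannot be read as absence of the transcript.

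Class II and class III PI3K make other phosphoinositides and serve endocytosis and autophagy. PIK3C3, the class III catalytic subunit, had 1618 normalized counts in control, 1395 in YA-A375 and 1259 in OA-A375, with a fold of 0.862 (0.804 to 0.925) and 0.778 (0.721 to 0.840). PIK3R4, its regulatory partner, had 1108, 1181 and 1378, with a fold of 1.07 (0.984 to 1.16) and 1.24 (1.15 to 1.35). Subunits of the same complex thus lay on opposite sides of control in OA-A375. The ratio of PIK3R4 to PIK3C3 per kilobase was 1.94 in control (1.80 to 2.09), 2.39 in YA-A375 (2.22 to 2.58) and 3.09 in OA-A375 (2.85 to 3.36), without overlap of the intervals. The class II genes stayed within 1.2-fold, PIK3C2A with 1606, 1467 and 1366 and PIK3C2B with 336, 345 and 330 in control, YA-A375 and OA-A375.

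**Figure D3:**
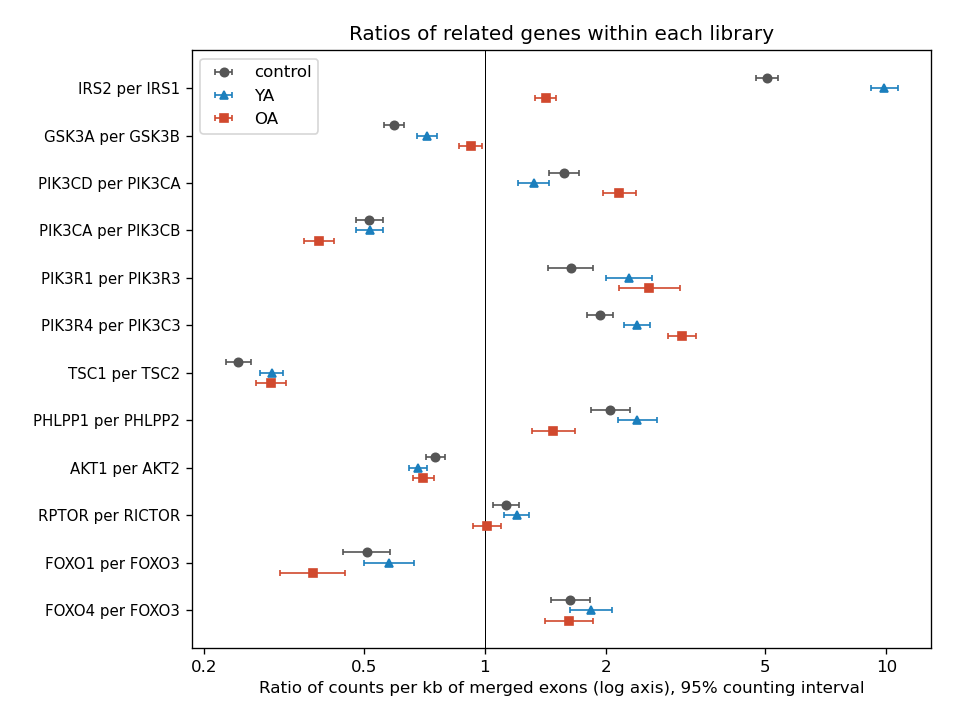
Ratio of counts per kilobase of merged exons for 12 pairs of related genes, on a log axis, in control (grey circles), YA (blue triangles) and OA (red squares), with 95% counting intervals as bars. The ratio of IRS2 to IRS1 spreads furthest, from 1.42 in OA to 9.88 in YA, and among the 12 pairs drawn that of AKT1 to AKT2 spreads least, from 0.681 to 0.753.

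Most of the tested phosphatases of the set were higher in YA-A375 than in OA-A375. INPP4B and INPP5D (SHIP1) are phosphatases that remove phosphates from PI3K lipid products, PHLPP1 and PHLPP2 dephosphorylate AKT, and PIK3IP1 binds and inhibits the catalytic subunits. Of the 4 tested, 3 were higher in YA-A375 than in OA-A375, all with intervals wholly beyond 1.2-fold, where 23.0% of all genes were higher and 10.0% by the interval. Against control 3 were lower in OA-A375, beside 21.5% of all genes, and 1 was higher in YA-A375, beside 17.4%. INPP4B (chr4:142023160-142847432) had 2534 normalized counts in control, 2492 in YA-A375 and 1829 in OA-A375. The first 2 libraries were close, with a fold of 0.984 (0.932 to 1.04), while OA-A375 was at 0.722-fold of control (0.678 to 0.768). PHLPP1 (chr18:62715450-62980433) had 782, 839 and 608, and YA-A375 was 1.38-fold of OA-A375 (1.24 to 1.54). Lipid phosphatases outside the set did not all follow. In YA-A375 against OA-A375, INPPL1 was 1.06-fold (1.02 to 1.11), INPP5B 1.22-fold (1.08 to 1.37) and SYNJ2 0.361-fold (0.337 to 0.387).

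INPP5D, a phosphatase known mainly from blood cells, was the least counted member tested, with 66 counts in control, 92 in YA-A375 and 38 in OA-A375 before scaling. Its normalized counts were 62.2, 86.95 and 42.7. YA-A375 was 2.04-fold of OA-A375 (1.38 to 3.06), while the interval of its fold in OA-A375 against control held 1 (0.448 to 1.04). PHLPP2 did not follow PHLPP1: it had 520.1, 478 and 561 normalized counts and stayed within 1.2-fold in each comparison. PIK3IP1 had 6 counts in control, 11 in YA-A375 and 15 in OA-A375, too few for the comparison across genes, and its fold of 2.98 in OA-A375 had an interval from 1.09 to 9.37.

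TSC1 and TSC2 of the TSC complex, which keeps RHEB inactive, were also higher in YA-A375 than in OA-A375. TSC2 (chr16:2047465-2089487), the GTPase-activating subunit, had 3971 normalized counts in control, 4068 in YA-A375 and 2981 in OA-A375. YA-A375 was level with control at 1.02-fold (0.982 to 1.07), and OA-A375 was at 0.751-fold (0.715 to 0.788). TSC1 (chr9:132891348-132946874), its stabilizing partner, had 865, 1075 and 785, and was 1.24-fold of control in YA-A375 (1.14 to 1.36) and 0.907-fold in OA-A375 (0.821 to 1.002). Between the secretomes YA-A375 was 1.36-fold of OA-A375 for TSC2 (1.30 to 1.43) and 1.37-fold for TSC1 (1.25 to 1.51). RHEB, the GTPase they act on, had 2771, 2752 and 3025 and stayed within 1.2-fold. Counted together, a grouping made after the values had been seen, YA-A375 exceeded OA-A375 by 1.2-fold or more in 5 of the 6 tested phosphatase and TSC genes and fell short of it by that much in none, beside 23.0% and 21.5% of all genes. The grouping leaves out AKT1S1, an inhibitor of mTOR complex 1 that was 1.09-fold (1.03 to 1.15) in the same comparison. Among the other 31 members 5 were higher and 3 lower.

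The kinases of the AKT branch stayed within 1.2-fold in all comparisons, except GSK3B and the sparsely counted SGK3. Of all 14413 genes tested, 9542 stayed within 1.2-fold in YA against control, 8273 in OA against control and 7994 in YA against OA. AKT1 had 2032 normalized counts in control, 1927 in YA-A375 and 1943 in OA-A375, and AKT2 had 3636, 3812 and 3723. The AKT2 fold was 1.05 in YA-A375 (1.003 to 1.10) and 1.02 in OA-A375 (0.977 to 1.07), and the AKT1 fold was 0.949 (0.892 to 1.01) and 0.956 (0.897 to 1.02). As far as counting error goes, these intervals leave no room for a 1.2-fold difference between these libraries in either gene. They do not cover variation between cultures or library preparations. PDPK1, which phosphorylates the activation loop of AKT, had 765, 764 and 677. Exons of 2 other genes on the opposite strand cover 23.7% of the merged PDPK1 exons. SGK3, an AKT-like kinase recruited to endosomes, had 93, 74 and 67 counts before scaling. Its fold of 0.798 in YA-A375 had an interval from 0.580 to 1.10.

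GSK3B, a kinase that AKT inhibits and that restrains glycogen synthesis and beta-catenin, had 4843 normalized counts in control, 4110 in YA-A375 and 3296 in OA-A375. The libraries stood in that order, with a fold of 0.849 in YA-A375 (0.815 to 0.884) and 0.680 in OA-A375 (0.650 to 0.712). Its paralog GSK3A had 1457, 1491 and 1536, within 1.2-fold in all comparisons. The ratio of GSK3A to GSK3B per kilobase was 0.595 in control (0.561 to 0.630), 0.717 in YA-A375 (0.677 to 0.760) and 0.921 in OA-A375 (0.863 to 0.982), and the intervals do not overlap.

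Of all roles, the mTOR complexes held the smallest share of values past 1.2-fold. MTOR is the shared kinase, RPTOR marks complex 1, RICTOR marks complex 2, MLST8 is in both, and AKT1S1 (PRAS40) inhibits complex 1. Among the 5 genes in 3 comparisons, the sole value past 1.2-fold was that of MTOR in OA-A375. Of all genes, 17.4% were that much higher and 16.4% that much lower in YA-A375 against control, and 21.1% and 21.5% in OA-A375. Between YA-A375 and OA-A375 these shares were 23.0% and 21.5%. MTOR had 2404 normalized counts in control, 2719 in YA-A375 and 2897 in OA-A375, with a fold of 1.13 (1.07 to 1.19) and 1.21 (1.14 to 1.27). RICTOR had 1488, 1533 and 1550.2, and RPTOR had 1275, 1399 and 1191. The ratio of RPTOR to RICTOR per kilobase was 1.13 in control (1.05 to 1.21), 1.2 in YA-A375 (1.12 to 1.29) and 1.01 in OA-A375 (0.932 to 1.10), and the intervals of YA-A375 and OA-A375 do not overlap. MLST8 varied between 1539 and 1584, and AKT1S1 had 3229, 3037 and 2792.

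Below mTOR complex 1 the translation factors EIF4E and EIF4B differed in opposite directions. EIF4E (chr4:98871684-98930637), which binds the mRNA cap, had 1234 normalized counts in control, 1173 in YA-A375 and 1618 in OA-A375. Control and YA-A375 were close and OA-A375 was higher, at 1.31-fold of control (1.22 to 1.41), while YA-A375 was 0.725-fold of OA-A375 (0.672 to 0.783). EIF4B (chr12:53006158-53042209), a cofactor of the EIF4A helicase and a substrate of S6 kinase, had 25243, 20861 and 18143. Its fold was 0.826 in YA-A375 (0.812 to 0.841), just past 1.2-fold, and 0.719 in OA-A375 (0.705 to 0.733). The S6 kinase genes differed less. RPS6KB1 had 975, 967 and 1154, or 1.18-fold of control in OA-A375 (1.08 to 1.29), and RPS6KB2 had 693, 707 and 679.

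The FOXO factors, which AKT keeps out of the nucleus, were all at least 1.2-fold lower in OA-A375 than in control. Among all genes, 21.5% were that much lower. FOXO1 (chr13:40469953-40666597) had 287 normalized counts in control, 268 in YA-A375 and 167 in OA-A375, with OA-A375 apart from the others. Its fold was 0.934 in YA-A375 (0.791 to 1.10), with an interval that holds 1, and 0.584 in OA-A375 (0.477 to 0.713). YA-A375 was 1.60-fold of OA-A375 (1.31 to 1.96). FOXO3 had 699, 575 and 556 and was lower than control in both secretome libraries, at 0.822-fold (0.737 to 0.916) and 0.795-fold (0.708 to 0.892). FOXO4 had 510, 472 and 402 and was at 0.788-fold in OA-A375 (0.688 to 0.903). The intervals of FOXO3 and FOXO4 reach past 1.2-fold lower on 1 side and short of it on the other.

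Genes that feed into the same pathway or act below it were counted from 8 lists, none of which holds a member. The lists were written with earlier results of these data known. Their counts are to be read against the shares of all genes, which were 17.4% higher and 16.4% lower in YA-A375 and 21.1% higher and 21.5% lower in OA-A375. For amino acid input to mTOR complex 1, through RAG GTPases, GATOR complexes and sestrins, all 27 genes were tested. In YA-A375 against control 5 were at least 1.2-fold higher and 1 lower, and in OA-A375 2 were higher and 5 lower. These shares, 18.5% and 3.7% in YA-A375 and 7.4% and 18.5% in OA-A375, were near or below those of all genes. SESN2, a leucine-sensing sestrin and stress-induced inhibitor of this input, had 367 normalized counts in control, 921 in YA-A375 and 511 in OA-A375, or 2.51-fold (2.23 to 2.83) and 1.39-fold (1.21 to 1.60). ITFG2, a subunit of the KICSTOR scaffold, was 1.45-fold in YA-A375 (1.22 to 1.73). SESN3, a FOXO-responsive sestrin also on the FOXO list, had 225, 227 and 126, or 0.558-fold in OA-A375 (0.442 to 0.702).

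Of the energy and stress inputs 15 of 16 genes were tested, with 4 higher and 1 lower in YA-A375 and 2 higher and 3 lower in OA-A375. TRIB3, a pseudokinase reported to bind AKT, had 1154 normalized counts in control, 3079 in YA-A375 and 1114 in OA-A375, so YA-A375 alone stood apart, at 2.67-fold of control (2.497 to 2.85). DDIT4 (REDD1), which inhibits mTOR complex 1 through TSC, had 671, 1594 and 802, or 2.38-fold in YA-A375 (2.18 to 2.60) and just under 1.2-fold in OA-A375. An antisense gene covers 41.2% of the merged DDIT4 exons. STRADA, a partner of the kinase STK11 with 18.1% of its exons shared with another gene on the same strand, was 2.14-fold in YA-A375 (1.44 to 3.23), and PRKAG2, an AMPK subunit, was 0.729-fold in OA-A375 (0.650 to 0.817). Between YA-A375 and OA-A375, 8 of 27 amino acid input genes and 6 of 15 energy and stress genes were higher in YA-A375 and none lower, beside the 23.0% and 21.5% of all genes. Not every list below leaned this way. Other phosphoinositide genes had 1 of 24 higher and 5 lower, and mTOR complex partners had 0 of 5 higher and 2 lower. Other adaptors had 7 of 17 higher and 2 lower. Translation genes had 3 of 16 higher and 2 lower, and autophagy genes had 3 of 13 higher and 1 lower.

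**Figure D4:**
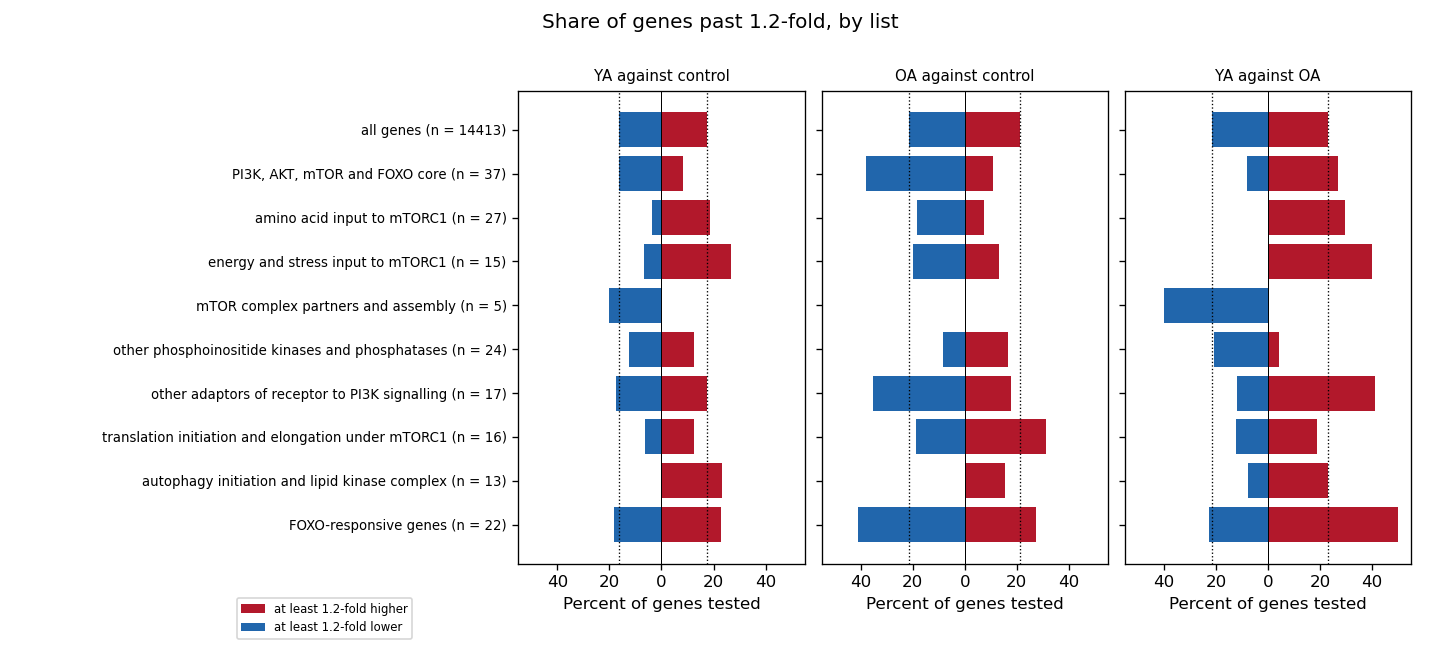
Share of tested genes at least 1.2-fold higher (red, to the right) or lower (blue, to the left) for all genes, the core set and 8 pathway lists, in 3 panels for the comparisons, with the shares of all genes as dotted lines. In OA against control the core set reaches 37.8% lower and 10.8% higher, and in YA against OA the amino acid and the energy and stress lists show no gene lower. In YA against OA the other phosphoinositide genes reach 20.8% lower and 4.2% higher.

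Other adaptors went both ways. Of 17 tested, 3 were higher and 3 lower in YA-A375, and 3 higher and 6 lower in OA-A375. IRS1, described above, was 0.572-fold in YA-A375 (0.522 to 0.626) and 1.91-fold in OA-A375 (1.78 to 2.04). IRS4 had 90 counts in control, 34 in YA-A375 and 1 in OA-A375, and its fold in OA-A375 was 0.0132 (0.000331 to 0.0757). GRB10, an inhibitory adaptor of insulin signaling, was 2.29-fold in YA-A375 (1.96 to 2.68), and CBLB, a ubiquitin ligase that targets PI3K-linked receptors, was 2.09-fold (1.82 to 2.40). SOS2, a RAS exchange factor, was 0.732-fold in OA-A375 (0.656 to 0.816).

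Of 24 tested genes of other phosphoinositide kinases and phosphatases, 3 were higher and 3 lower in YA-A375, and 4 higher and 2 lower in OA-A375. SYNJ2, an inositol phosphatase, was 2.34-fold in OA-A375 (2.19 to 2.502), OCRL was 1.31-fold there (1.21 to 1.41), and INPP5B was 1.46-fold in YA-A375 (1.30 to 1.65). Of 5 tested mTOR complex partners, 1 was lower in YA-A375 and none passed 1.2-fold in OA-A375. Of 13 genes of autophagy initiation, 3 were higher in YA-A375 and 2 in OA-A375, none were lower, and no interval lay wholly beyond 1.2-fold against control.

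Among 16 tested genes of translation under mTOR complex 1, 2 were higher and 1 lower in YA-A375, and 5 higher and 3 lower in OA-A375. EIF4EBP2, a repressor that binds EIF4E, was 0.685-fold in OA-A375 (0.646 to 0.726), the opposite direction to EIF4E. MKNK2, a kinase that phosphorylates EIF4E, was 1.53-fold in YA-A375 (1.44 to 1.63). EIF4E3, a cap-binding relative, was 3.45-fold in OA-A375 (2.24 to 5.46) at 29 counts in control and 84 in OA-A375. EIF4A1 had 74, 328 and 120 counts, or 4.45-fold in YA-A375 (3.45 to 5.80) and 1.93-fold in OA-A375 (1.43 to 2.62). Exons of other genes cover 48.6% of its own on the same strand, so its counts are uncertain.

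The FOXO-responsive list, of textbook targets that other factors also regulate, had 22 genes tested. In YA-A375 5 were higher and 4 lower, or 22.7% and 18.2%, near the 17.4% and 16.4% of all genes. In OA-A375 6 were higher and 9 lower, or 27.3% and 40.9%, beside 21.1% and 21.5%. Between the secretomes 11 were higher in YA-A375 and 5 lower, beside 23.0% and 21.5% of all genes. The list held both directions in OA-A375, where CITED2 was 0.458-fold (0.422 to 0.497), KLF6 0.528-fold (0.497 to 0.561) and SOD2, the mitochondrial superoxide dismutase, 1.82-fold (1.67 to 1.98). In YA-A375 TXNIP, an inhibitor of thioredoxin and glucose uptake, was 2.58-fold (2.36 to 2.81), BCL6 was 1.63-fold (1.44 to 1.85) and FBXO32, an atrophy-linked ubiquitin ligase, was 0.574-fold (0.518 to 0.635). TXNIP and BCL6 were also higher than control in OA-A375, at 1.58-fold (1.44 to 1.75) and 1.65-fold (1.45 to 1.88). By the interval rule, 6 genes of the list were higher and 8 lower in OA-A375 than in control, beside 9.04% and 9.08% of all genes. A link between these genes and the FOXO transcripts was not tested.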

How the data were processed

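The table deposited by the authors holds unscaled read counts for each gene, listed by Ensembl identifier and symbol, from 3 poly(A) libraries of A375. The submitters' processing notes name STAR 2.5.1b, featureCounts, R 3.6.1 and hg38, and the annotation release and strand setting were not given in the sources used here. Scaling used the size factors of DESeq2 1.42.0 (R 4.3.3; median of ratios), 1.06 for control, 1.06 for YA and 0.891 for OA. Calls used log2((a + 1)/(b + 1)) of normalized counts past 1.2-fold, over 14413 genes with a mean of at least 20. Folds printed are plain ratios with 95% Clopper-Pearson intervals, which cover counting error only, as does the floor of 3 counts. With 1 library per group no test was run. Exon lengths, overlaps and gene positions came from GENCODE release 29, which held 57433 of the identifiers and may not be the authors' release. Promoter windows came from RefSeq on GRCh38.p14. Python 3.11.15, pandas 2.3.3, scipy 1.17.1 and matplotlib 3.10.9 were used, and the procedure was run on simulated counts. Those counts varied by counting error alone, which the intervals assume, so the run did not cover variation between libraries. Members, roles and lists were chosen with earlier results of these data known. Every member is named, with folds for those whose interval lay wholly beyond 1.2-fold and for some others chosen after values were seen. List genes are the up to 3 furthest from 1 whose interval lay wholly beyond 1.2-fold, for each secretome against control, and 1 gene that the rule names is not reported here. Gene pairs and motifs were chosen after values were seen. Alternatives were edgeR 4.0.16 TMM and total-count scaling, leaving out the filter or raising it to 100, a pseudocount of 5, stricter thresholds, and means for medians.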

Additional observations from a re-analysis of the deposited data

How the results depend on the processing

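The numbers of members past 1.2-fold stayed within 1.5 times, and the members' medians within the spread, under TMM scaling, total-count scaling, a filter left out or raised to 100, and a pseudocount of 5, as did the medians when replaced by means. Other scalings shifted the median gene by between -0.01 and 0.01 on the log2 scale. Stricter thresholds call fewer members because of how they are built. At 2-fold, YA against control had 0 members higher and 0 lower, OA against control had 0 and 0, and YA against OA had 2 higher (IRS2 and INPP5D) and 0 lower. At a log2 difference of 1.2 every one of these counts was 0. When the interval had to lie wholly beyond 1.2-fold, YA against control had 0 higher and 1 lower, while OA against control had 1 higher and 8 lower. Some counts of the pathway lists moved by more than 1.5 times when the filter, the pseudocount or the scaling changed. No called member or list gene that was computed changed direction under any setting. No paired analysis was possible because each group has 1 library, and for the same reason no library could be left out. PIK3CG and PIK3R2 had too few counts for any fold, and low counts leave wide intervals for PIK3IP1, INPP5D and SGK3.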
